A study of Mus musculus with 15 samples.

Results

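Hopx, the homeodomain-only protein gene, and Hopxos, an antisense RNA gene at the same locus, were followed in the left ventricle of mice with point mutations in Rbm20. These are 2 of the 40174 gene symbols counted, and they were chosen by their counts in mutant and wild-type libraries, as both nearly vanished in the mutants. Their levels against wild type are therefore given as a description, with no test. Rbm20 encodes a muscle RNA-binding protein that controls the splicing of titin and other heart transcripts. Total RNA was sequenced from left ventricles of C57BL/6 mice at 2 months of age. The groups were homozygous S637A (genotype Rbm20 S637A -/-, here A-line HOM), heterozygous S637A (Rbm20 S637A +/-, A-line HET), homozygous S639G (Rbm20 S639G -/-, G-line HOM), heterozygous S639G (Rbm20 S639G +/-, G-line HET) and wild type (WT), with 3 libraries labelled in each. The labels name no transgene or Cre, and they do not say how the alleles were made, how many founders each line had or whether each library came from a separate animal. P-values below therefore measure the spread between these libraries.

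In all 40174 symbols, replicate 2 of A-line HOM equalled replicate 2 of WT, and replicate 3 of A-line HOM equalled replicate 3 of WT. The labels do not decide which group they belong to, and they were used once, as WT, which left 13 distinct libraries: 1 A-line HOM, 3 A-line HET, 3 G-line HOM, 3 G-line HET and 3 WT. With 1 library, A-line HOM has no spread of its own. Its SEs and p-values below use the spread within the other groups and do not measure variation among A-line HOM hearts. The totals were 17507813 counts in A-line HOM, 12959087 to 17448328 in A-line HET, 20324529 to 29436407 in G-line HOM, 23714906 to 28121438 in G-line HET and 25279202 to 26549906 in WT. Rbm20 itself had 495.5 CPM (counts scaled to library size) in A-line HOM, 379 to 439 in A-line HET, 370 to 426 in G-line HOM, 367 to 399 in G-line HET and 357 to 419 in WT, and a gene count does not check the labels of a point mutation. Markers of heart muscle summed to between 51552 CPM in a G-line HOM library and 69826 CPM in a G-line HET library. Atrial muscle markers summed to at least 21.1 CPM in every library, and 3 libraries had the atrial light chain gene Myl7 at 10 CPM or more, with 240 CPM in replicate 3 of A-line HET, 45.8 CPM in replicate 1 of G-line HOM and 524 CPM in replicate 2 of WT. Since these are whole-tissue libraries, fewer cells of a type and less RNA per cell cannot be told apart.

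HOPX is a small protein with a homeodomain that does not bind DNA. In the mouse heart it is known to hold back transcription by serum response factor (SRF), in part by recruiting the histone deacetylase HDAC2, to be a target of NKX2-5, and to act with SMAD proteins in restraining Wnt signalling in cardiac precursor cells. Mice without Hopx are known for altered growth of the heart muscle and for conduction defects. Hopxos is an RNA gene of the opposite strand, and its function is not described here.

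Both genes lie on chromosome 5, Hopx on the minus strand and Hopxos on the plus strand. In the RefSeq annotation of the GRCm38.p6 build the Hopx gene spans 28138 bases and the Hopxos gene 3484 bases, all 3484 of them within Hopx. The counts were made on the GRCm39 build, so coordinates serve only for the sequences below. GENCODE vM21 lists 3 Hopx transcripts and 1 Hopxos transcript, and 412 of the 1661 exonic bases of Hopxos (24.8%) overlap exons of Hopx there. The RefSeq Hopxos gene overlaps 0 bases of the GENCODE Hopx exons. Whether counting used strand is not given in the sources used here, so reads of the 2 genes cannot be told apart wherever they overlap.

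RefSeq gives 2 starts for Hopx, 19856 bases apart, and 1 for Hopxos, which lies between them and nearer to the proximal Hopx start. The 3 promoter windows are shown because both genes were low together in every mutant group. Each holds 300 bases across the start and is credited to RefSeq (GRCm38.p6). They lie at chr5:77115074-77115373 (minus strand), chr5:77095218-77095517 (minus strand) and chr5:77098580-77098879 (plus strand). Capitals mark matches to the motifs searched.
Hopx distal start: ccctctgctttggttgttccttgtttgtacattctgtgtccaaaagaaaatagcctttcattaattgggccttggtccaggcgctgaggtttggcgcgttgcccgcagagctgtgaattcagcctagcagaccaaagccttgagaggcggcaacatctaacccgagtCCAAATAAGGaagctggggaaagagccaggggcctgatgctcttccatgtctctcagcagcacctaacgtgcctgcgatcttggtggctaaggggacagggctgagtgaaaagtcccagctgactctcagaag
Hopx proximal start: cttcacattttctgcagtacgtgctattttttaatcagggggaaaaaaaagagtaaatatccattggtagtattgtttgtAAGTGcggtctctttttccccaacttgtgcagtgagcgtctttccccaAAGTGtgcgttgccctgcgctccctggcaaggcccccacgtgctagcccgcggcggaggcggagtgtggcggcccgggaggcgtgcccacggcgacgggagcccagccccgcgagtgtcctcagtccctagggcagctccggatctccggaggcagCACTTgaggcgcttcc
Hopxos start: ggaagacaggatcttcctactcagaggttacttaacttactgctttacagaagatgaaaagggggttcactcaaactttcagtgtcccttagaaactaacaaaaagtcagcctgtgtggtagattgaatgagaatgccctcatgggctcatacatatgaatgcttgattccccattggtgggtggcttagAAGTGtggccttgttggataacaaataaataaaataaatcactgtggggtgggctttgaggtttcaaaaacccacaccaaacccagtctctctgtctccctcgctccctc

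On both strands of these windows, 5 motifs were searched: the CArG box bound by SRF, the MEF2 box, AGATAA for GATA factors, AAGTG for NKX2-5 and CATTCC for TEAD factors. The window of the distal Hopx start held a CArG box, CCAAATAAGG, at -83 to -74 from the start, a motif found in 535 of 32851 RefSeq mouse promoter windows of this length (1.63%). The window of the proximal start held AAGTG at -170 to -166 and at -122 to -118 and its reverse complement at 34 to 38. The Hopxos window held AAGTG at -60 to -56, and 46.4% of all promoter windows hold this short motif. The letters of the MEF2 box (in 3.19% of windows), AGATAA (11.2%) and CATTCC (14.7%) were not in these 3 windows. The counts give one value per gene, so they do not show which Hopx start was used.

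Hopx was abundant in WT ventricle and low in every mutant library. The A-line HOM library had 39 counts, or 2.23 CPM. The A-line HET libraries had 126, 78 and 87 counts, or 9.93, 4.55 and 4.63 CPM. The G-line HOM libraries had 41, 45 and 42 counts, or 1.28, 2.12 and 1.97 CPM. Those of G-line HET had 167, 145 and 110 counts, or 6.32, 6.26 and 4.03 CPM. The WT libraries had 3379, 3223 and 3500 counts, or 145.1, 122.0 and 145.9 CPM. No mutant library came near a WT library: the highest, A-line HET replicate 1, stood at 8.14% of the lowest, WT replicate 2.

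The group means placed the heterozygotes slightly above the homozygotes, and all of them far below WT. A-line HOM was at 1.62% of the WT mean, with a log2 fold change of -5.95 ± 0.55 (SE; n = 1 and 3). A-line HET averaged 6.37 ± 3.08 CPM (SD, n = 3), which is 4.63% of WT and -4.47 ± 0.30 on the log2 scale. G-line HOM averaged 1.79 ± 0.447 CPM (SD, n = 3), 1.30% of WT and -6.29 ± 0.33. G-line HET averaged 5.54 ± 1.30 CPM (SD, n = 3), 4.02% of WT and -4.64 ± 0.29. The WT mean was 137.7 ± 13.6 CPM (SD, n = 3). WT thus exceeded A-line HOM 61.8-fold, A-line HET 21.6-fold, G-line HOM 76.8-fold and G-line HET 24.9-fold. In order of level, G-line HOM came lowest, then A-line HOM, whose library lay just above the G-line HOM range, then G-line HET and A-line HET, whose libraries overlapped, and WT.

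The shared pair of libraries had 122.0 and 145.9 CPM of Hopx, beside 2.23 CPM in the remaining A-line HOM library and 145.1 CPM in the remaining WT library. With the pair left out altogether, the log2 fold changes against the remaining WT library were -6.03 for A-line HOM, -4.54 for A-line HET, -6.37 for G-line HOM and -4.72 for G-line HET. With the pair counted as A-line HOM in place of WT, A-line HOM was at -0.68 and its 3 libraries spanned 2.23 to 145.9 CPM, while the other groups were at -4.54, -6.36 and -4.71. The low level in A-line HOM as a group thus rests on 1 library, and that in the other mutant groups moved by less than 0.1 on the log2 scale with the treatment of the pair.

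**Figure D1:**
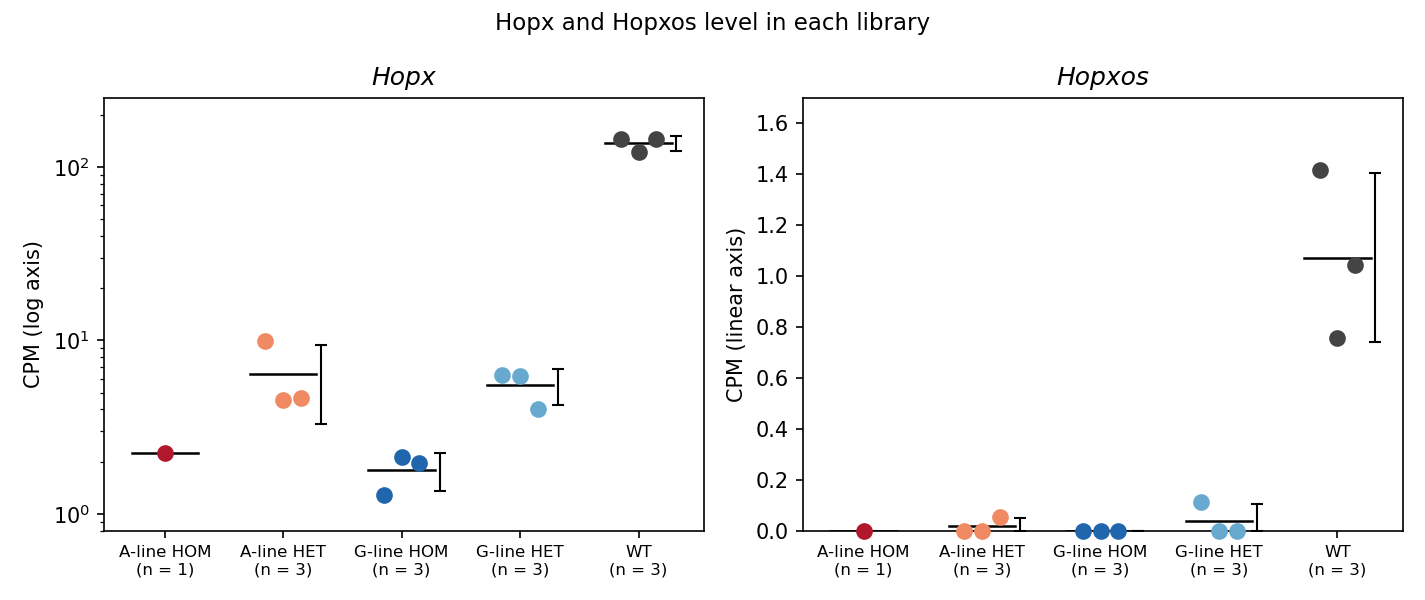
Level of Hopx (left, CPM on a log axis) and Hopxos (right, CPM on a linear axis) in each of the 13 distinct libraries; points are libraries, horizontal lines group means and bars 1 SD where a group has 3 libraries (cut at 0). All 10 mutant libraries lie at 9.93 CPM of Hopx or less, and the WT libraries at 122.0 CPM or more.

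Hopxos had few counts even in WT, where every library held some. As the RefSeq Hopxos gene lies within Hopx and strand use is not given, these counts could include reads of Hopx. The A-line HOM library had 0 counts. A-line HET replicate 3 had 1 count and the other 2 A-line HET libraries had 0. All 3 G-line HOM libraries had 0 counts. G-line HET replicate 1 had 3 counts and the other 2 G-line HET libraries had 0. The WT libraries had 33, 20 and 25 counts, or 1.42, 0.757 and 1.04 CPM, a mean of 1.07 ± 0.331 (SD, n = 3). Only 2 of 10 mutant libraries therefore had any Hopxos count, and both were heterozygous. Hopxos passed the filter on low counts only through the WT libraries.

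With a floor of 3 counts over the group, Hopxos was at least 6.18-fold lower in A-line HOM and at least 26.3-fold lower in G-line HOM than in WT. A-line HET had a ratio to WT of 0.0194 (exact 95% interval 0.000486 to 0.111) and G-line HET a ratio of 0.0369 (0.00744 to 0.112). Over all mutant libraries together the ratio was 0.0174 (0.00462 to 0.0463), from 4 counts against 78. Without G-line HET replicate 1, which holds 3 of those 4 counts, the mutant level was 0.494% of WT, against 1.74% with it. Intervals and floors cover counting error only.

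Per kilobase of GENCODE exon, Hopx was at 90.8 ± 8.97 CPM and Hopxos at 0.645 ± 0.199 CPM in WT (SD, n = 3), a 140.7-fold difference in level. The annotation used for counting is not given, so the exon lengths behind the counts may differ. Of the symbols counted, 73.4% are in GENCODE vM21 and 96.3% in RefSeq. Hopxos made up 0 of 39 counts of the pair in A-line HOM (which allows a share of up to 7.69%) and 1 of 292 (0.342%) in A-line HET. It was 0 of 128 in G-line HOM (which allows up to 2.34%) and 3 of 425 (0.706%) in G-line HET. Summed over all mutants the share was 4 of 884, or 0.452% (exact Clopper-Pearson 95% interval 0.123 to 1.15), against 78 of 10180, or 0.766% (0.606 to 0.955), in WT. At the WT share, 6.77 Hopxos counts would fall among the 884 mutant counts, where 4 were seen. A difference in share was not detectable at this depth.

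Between mutant groups, which the choice of the genes did not use, Hopx was lower in homozygous than in heterozygous G-line hearts. The G-line HOM libraries, at 1.28 to 2.12 CPM, did not overlap the G-line HET libraries, at 4.03 to 6.32 CPM. The log2 difference was -1.65 ± 0.33 (SE), a 3.15-fold lower level, with an adjusted p of 0.0101 in edgeR's quasi-likelihood test and an approximate 95% interval of -2.42 to -0.89. In this comparison 14.6% of the 17588 genes tested were called at an adjusted p under 0.05, 6.22% higher and 8.42% lower. By size of the fall, Hopx ranked 183 of 17588. The call was kept when any of the 13 libraries was left out (adjusted p 0.000342 to 0.0478) and was lost when the shared pair was counted as A-line HOM (-1.65, adjusted p = 0.434). An exact permutation test of the 6 libraries, two-sided, gave p = 0.1, the smallest that 3 against 3 allows.

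The summed heart muscle markers were also lower in that comparison, by less. They summed to 51552 to 56855 CPM in G-line HOM and 62200 to 69826 CPM in G-line HET. Of the 12 markers, 6 passed edgeR's test as lower (Actc1, Ckm, Mb, Myh6, Myl3 and Tnni3), where 8.42% of all genes did. Mybpc3, Myl2, Pln and Ryr2 lay below 0 and did not pass. Csrp3 (log2 difference 0.17) and Tnnt2 (0.35) lay above 0 and did not pass. The median log2 difference of the 12 markers was -0.29, beside 0.04 over all genes. The part of these markers in the Hopx difference was not tested. Without the 3 libraries with Myl7 at 10 CPM or more, Hopx differed by -1.42 between G-line HOM and G-line HET (adjusted p = 0.0434 in edgeR's test).

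The A-line comparison gave a difference of like size, with 1 homozygous library. Hopx was at 2.23 CPM in A-line HOM against 4.55 to 9.93 CPM in A-line HET, a log2 difference of -1.48 ± 0.51 (SE; approximate 95% interval -2.66 to -0.29) that did not pass the adjusted test (adjusted p = 0.999 in edgeR's quasi-likelihood test, unadjusted 0.0155). Only 0.0227% of genes (4) were called there. The homozygous minus heterozygous difference in the A-line minus that in the G-line was 0.18 ± 0.62 (interval -1.25 to 1.60, adjusted p = 0.925 in the same edgeR test; 0.0171% of genes were called). This interval spans more than a 2-fold difference either way, and the sign turned without A-line HET replicate 2 (-0.01), A-line HET replicate 3 (-0.01) or G-line HOM replicate 1 (-0.05). With the shared pair as A-line HOM, A-line HOM lay above A-line HET, by 3.85 (adjusted p = 0.679).

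A-line HET and G-line HET had Hopx at 6.37 and 5.54 CPM, with overlapping libraries. The log2 difference was 0.17 ± 0.30 (interval -0.52 to 0.86, adjusted p = 0.839 in edgeR's test; exact permutation p = 0.8), where 0.0284% of genes (5) were called. The sign was not stable: the difference was -0.27 without A-line HET replicate 1, at 9.93 CPM, and -0.02 without G-line HET replicate 3. For Hopxos no fold between mutant groups is given, since each group had 3 counts or fewer in total.

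Few other genes were so low in every mutant library. Of 9925 genes with at least 5 CPM in each WT library, 3 (0.0302%) had all 10 mutant libraries under 10% of the lowest WT library. These were Myh7b, a myosin gene that hosts a muscle microRNA, at most at 2.05% of the lowest WT library, the predicted gene Gm36703 at 5.32%, named after its values were seen, and Hopx at 8.14%. Just outside the limit stood Aqp4, a water channel gene, at 11.4%, and the next gene with a name, Pm20d1, was at 28.6%.

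Myh7b and Aqp4 repeated the order of the genotypes seen for Hopx within the G-line. Myh7b was at 0.343 CPM in A-line HOM, 0.315 to 0.585 in A-line HET, 0.141 to 0.236 in G-line HOM, 0.216 to 1.13 in G-line HET and 55.3 to 75.0 in WT. Its G-line HOM and G-line HET libraries overlapped, and the log2 difference between the groups was -1.68 ± 0.52 (SE). Aqp4 had 3 counts in A-line HOM, 5 to 12 in A-line HET, 1, 0 and 0 in G-line HOM, 3 to 12 in G-line HET and 212 to 278 in WT.

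**Figure D2:**
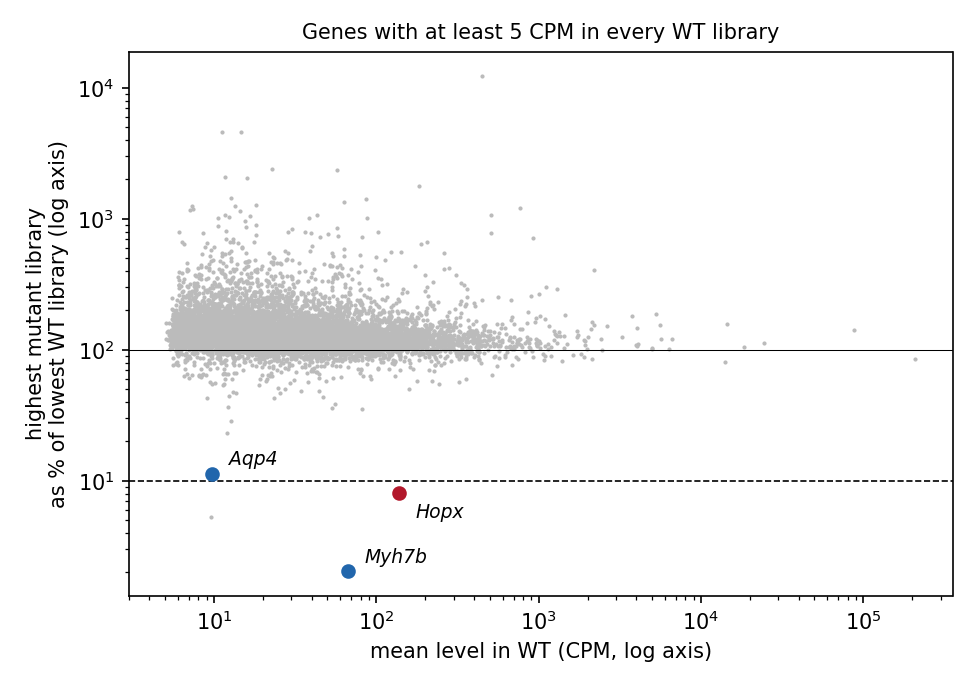
The highest mutant library as a percent of the lowest WT library (vertical log axis) against the mean WT level in CPM (horizontal log axis) for the 9925 genes with at least 5 CPM in every WT library. The dashed line marks 10%; Hopx lies just below it at 8.14% and Myh7b at 2.05%, while Aqp4 lies just above it at 11.4%.

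Over the 13 distinct libraries, the genes with levels most like those of Hopx shared the step between mutants and WT, at very different sizes. Pearson's r of log2(CPM + 0.5) was highest for Isoc1 (0.987), an isochorismatase-domain gene, followed by Aqp4 (0.986), Creg1 (0.978), Tmem245 (0.971), Acsm5 (0.967), Cd164 (0.966), Rragd (0.965), Myh7b (0.964), Cyp3a13 (0.964) and Entpd5 (0.963). Of 13891 genes compared, 27 had an r over 0.95. Isoc1 averaged 23.3 CPM in A-line HOM, 27.3 in A-line HET, 20.8 in G-line HOM, 26.3 in G-line HET and 53.8 ± 3.53 (SD, n = 3) in WT. Entpd5 averaged 79.0, 90.2, 54.7 and 89.0 CPM in the mutant groups in the same order, and 221.7 ± 24.3 (SD, n = 3) in WT. Cyp3a13 and Acsm5 were low throughout, at 3.29 and 3.72 CPM in WT. These points share their libraries and normalization, and the difference between the 10 mutant and 3 WT libraries dominates r.

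Among the 10 mutant libraries alone, the genes that followed Hopx most closely lay nearer to their WT level than Hopx did, in every mutant group. Hopx was chosen for its low level against WT, so this says little about these genes. Of 13891 genes compared, 38 had an r over 0.9 there. Gpc4, a glypican gene, had the highest r (0.979), followed by Adcy8 (0.965), an adenylyl cyclase gene, Vars2 (0.951), Grb2 (0.951) and Oma1 (0.944). Gpc4 was at 24.97 CPM in A-line HOM and averaged 31.1 in A-line HET, 23.2 in G-line HOM, 31.4 in G-line HET and 26.7 ± 0.906 (SD, n = 3) in WT. Adcy8 averaged 0.229, 1.05, 0.136 and 0.711 CPM in the mutant groups in the same order, and 0.917 ± 0.214 (SD, n = 3) in WT. Its mutant libraries held only 1 to 25 counts. With a pseudocount of 0.1, Isoc1 (0.987) and Gpc4 (0.981) again came first, while Acsm5 moved to rank 18 and Cyp3a13 to rank 37 in the list over 13 libraries.

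**Figure D3:**
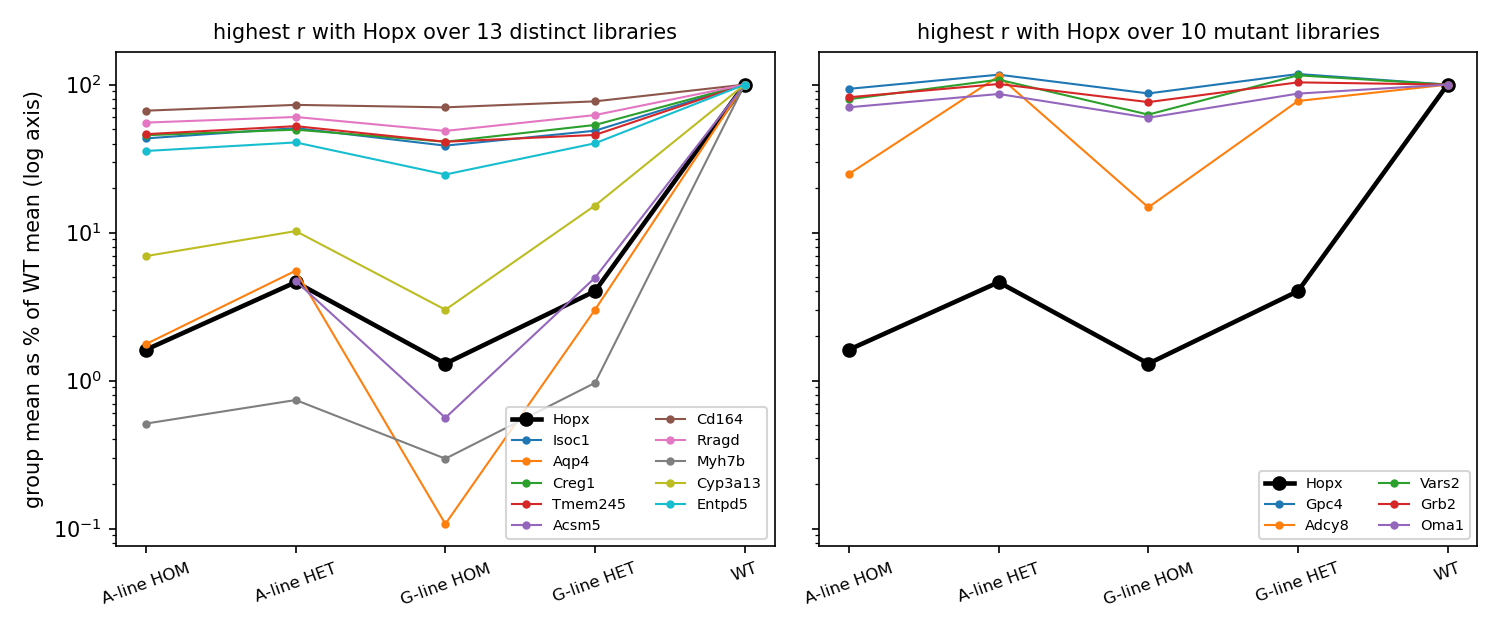
Group means as a percent of the WT mean (log axis) for Hopx (black) and the genes with the highest r over the 13 distinct libraries (left) or over the 10 mutant libraries (right); a group mean of 0 is not drawn (Acsm5 in A-line HOM). On the left every gene lies below WT in each mutant group, by amounts that range widely; on the right Gpc4 lies near the WT level.

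The tested genes around Hopx on chromosome 5 did not share its low level. Those directly beside Hopx, such as Thegl, Arl9 and Spink2, did not pass the filter and are not covered. Of 45 genes annotated within 1 Mb, 36 were in the count tables and 16 passed the filter. In A-line HOM against WT, where 4.68% of all genes were called (2.82% higher, 1.86% lower), 0 of 16 passed edgeR's test (2 at an unadjusted p under 0.05, 0 with DESeq2), with log2 fold changes from -0.88 to 0.27. In A-line HET, where 7.96% of all genes were called (3.99% higher, 3.97% lower), 0 passed (5 at an unadjusted p under 0.05, 0 with DESeq2), with values from -0.57 to 0.46. In G-line HOM, where 26.4% were called (13.1% higher, 13.3% lower), 5 of 16 (31.2%) passed, 3 higher and 2 lower, between -0.76 and 1.65. In G-line HET, where 7.52% were called (3.97% higher, 3.54% lower), 2 of 16 (12.5%) passed, 1 higher and 1 lower, between -0.60 and 0.71. These shares are near the background.

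Igfbp7, an insulin-like growth factor binding protein gene, was the neighbour that differed most, in the direction opposite to Hopx. It was at 68.9 CPM in A-line HOM, 75.7 to 80.7 in A-line HET, 125.2 to 215.0 in G-line HOM, 76.9 to 107.7 in G-line HET and 50.2 to 66.0 in WT. It rose in G-line HOM by 1.65 ± 0.19 (log2 ± SE, adjusted p = 7.79e-05 in edgeR's test) against WT and by 0.94 ± 0.18 (adjusted p = 0.00709) against G-line HET. Both calls held under all 22 alternatives tried. Rest, which encodes a transcriptional repressor and is the next tested gene beyond Hopx, had log2 fold changes of 0.13 in A-line HOM, 0.15 in A-line HET and 0.24 in G-line HOM, and G-line HET was at 0.09; of these, G-line HOM passed (adjusted p = 0.0389 in edgeR's test), a call lost under 12 of 22 alternatives. Srp72, the nearest tested gene on the other side, was at -0.21, -0.26, -0.19 and -0.12 in the same order, and did not pass in these comparisons.

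**Figure D4:**
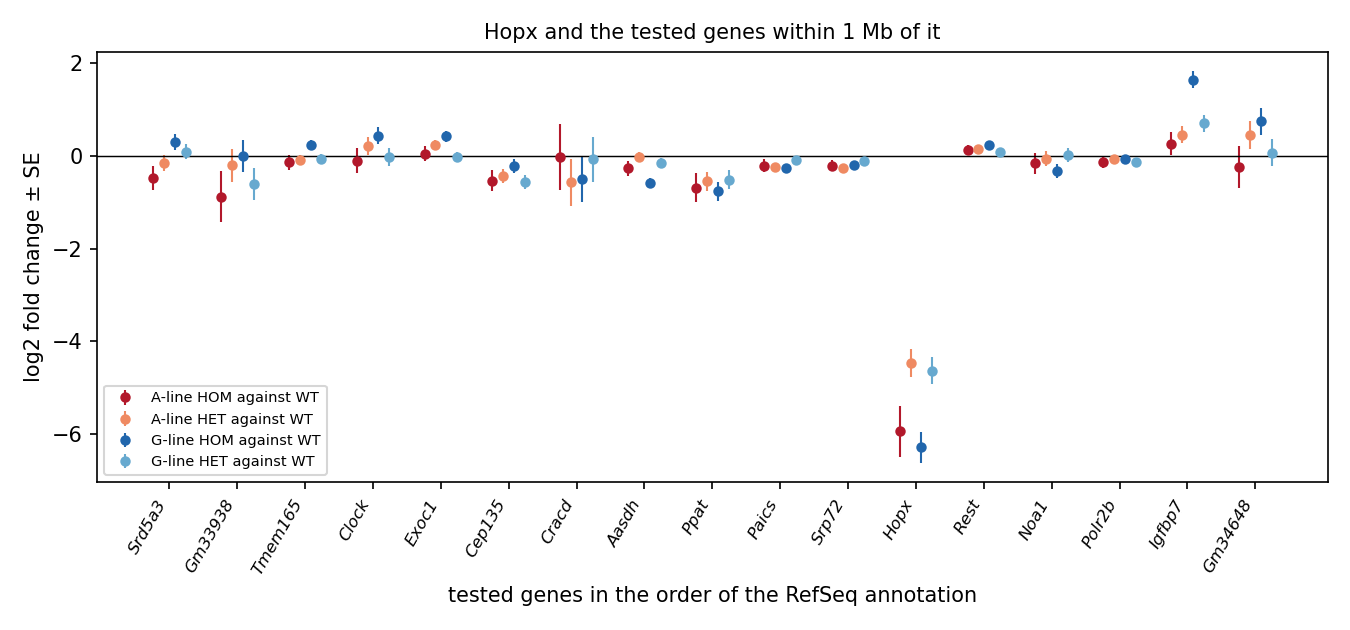
Log2 fold change against WT (points, with bars of 1 SE) of Hopx and the 16 tested genes within 1 Mb of it, in annotation order, for each mutant group. Hopx lies between -6.29 and -4.47, and its neighbours lie between -0.88 and 1.65.

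HOPX is known through its partners, so these were followed next. This list and those below were chosen with earlier results of these data known, so their shares of calls are a description. Of 9 genes of HOPX partners and SRF cofactors, 1 passed the test against WT in each mutant group, each time Myocd, which encodes the SRF coactivator myocardin. That share of 11.1% stands beside 4.68% of all genes in A-line HOM, 7.96% in A-line HET and 7.52% in G-line HET, and in G-line HOM it lies below the 26.4% of all genes. Myocd had 243 CPM in A-line HOM, 223 to 237 in A-line HET, 207 to 227 in G-line HOM, 217 to 245 in G-line HET and 123 to 167 in WT, so every mutant library lay above every WT library. Its log2 fold changes were 0.72 ± 0.14, 0.65 ± 0.10, 0.56 ± 0.10 and 0.65 ± 0.10 (SE) in that order, with adjusted p of 0.00991, 0.00198, 0.00118 and 0.00187 in edgeR's test. These 4 calls held without any single library and were lost with the shared pair left out. The other 8 genes, Srf, Mrtfa, Mrtfb, Hdac2, Gata4, Epc1, Smad1 and Smad4, stayed between -0.14 and 0.36 against WT. The list's median was 0.14 in A-line HOM, 0.03 in A-line HET, 0.04 in G-line HOM, with 0.02 in G-line HET, with the median over all genes within 0.02 of 0. Srf was lower in G-line HOM than in G-line HET by 0.42 on the log2 scale (adjusted p = 0.0241), a call lost without G-line HET replicate 1 or 2 or G-line HOM replicate 2 or 3.

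Genes that SRF is known to drive moved in both directions. Of 24 tested, 5 passed in A-line HOM (20.8% against 4.68% of all genes; 4 higher, 1 lower), 4 in A-line HET (16.7% against 7.96%; 2 and 2), 11 in G-line HOM (45.8% against 26.4%; 6 and 5) and 3 in G-line HET (12.5% against 7.52%; 2 and 1). Their medians were -0.17, 0.17, 0.25 and -0.03, and 3, 4, 8 and 2 of these calls held without any single library. Ankrd1, a cardiac ankyrin repeat gene induced by strain, was higher in all 4, at 5445 CPM in A-line HOM, 3458 to 4946 in A-line HET, 6498 to 8620 in G-line HOM, 3188 to 5132 in G-line HET and 718 to 877 in WT. Its log2 fold changes were 2.82 ± 0.23, 2.49 ± 0.19, 3.32 ± 0.20 and 2.39 ± 0.19 (SE). Ccn1, an early response gene, rose by 1.98 ± 0.17 in A-line HOM, 0.69 ± 0.14 in A-line HET and 1.05 ± 0.14 in G-line HOM. In the other direction, G-line HOM had Ckm, muscle creatine kinase, at -1.69 ± 0.19, and Atp2a2, the calcium pump of the sarcoplasmic reticulum, at -1.32 ± 0.17, against WT. Myh7, slow myosin heavy chain, whose reads may be divided with Myh6, was at -0.92 ± 0.17 in A-line HET, -0.86 ± 0.17 in G-line HOM, with -1.15 ± 0.17 in G-line HET.

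The cardiac transcription factors had 9 tested members. In A-line HOM 0 passed edgeR's test (3 at an unadjusted p under 0.05, 0 with DESeq2), 2 passed in A-line HET (22.2% against 7.96% of all genes), 4 in G-line HOM (44.4% against 26.4%) and 2 in G-line HET (22.2% against 7.52%), each count split evenly between higher and lower. Of these calls, 2 in G-line HOM and 1 in G-line HET held without any single library. The medians were 0.25, 0.03, 0.07 and 0.02. Of all 17588 genes, 3309 were at an unadjusted p under 0.05 in A-line HOM by edgeR's test. Nkx2-5, which encodes a known activator of Hopx, was at 0.57 ± 0.38, 0.10 ± 0.28, -0.11 ± 0.28 and 0.58 ± 0.27 (log2 ± SE) and did not pass in these comparisons. Tbx5, a T-box factor of the conduction system, had 13.3 CPM in A-line HOM, 10.1 to 16.2 in A-line HET, 8.06 to 9.41 in G-line HOM, 10.8 to 12.3 in G-line HET and 17.4 to 26.7 in WT. It fell in G-line HOM by 1.24 on the log2 scale (SE 0.18, adjusted p = 0.000199 in edgeR's test) and in G-line HET by 0.85 (SE 0.18, adjusted p = 0.00943). Tbx20, another T-box factor, rose in G-line HOM by 1.12 ± 0.15 (adjusted p = 0.000145), at 267 to 399 CPM against 144 to 171 CPM in WT.

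Connexin and conduction genes had 11 tested members. Over all 17588 genes, 3309 were at an unadjusted p under 0.05 in A-line HOM by edgeR's test. In A-line HOM 0 passed edgeR's test (3 at an unadjusted p under 0.05, 0 with DESeq2), 1 passed in A-line HET (9.09% against 7.96% of all genes), 4 in G-line HOM (36.4% against 26.4%; 2 higher, 2 lower) and 3 in G-line HET (27.3% against 7.52%; 2 higher, 1 lower). The medians were -0.03, -0.02, -0.16 and -0.04. Of these calls, 1 in A-line HET and 2 in G-line HET held without any single library, and in G-line HOM each of the 4 was lost without at least 1 library. Gja1, which encodes connexin 43, the main gap junction protein of ventricular muscle, was at 230 to 252 CPM in G-line HET against 371 to 540 CPM in WT, a log2 fold change of -0.93 ± 0.12 (adjusted p = 0.000381).

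The Wnt target and feedback genes had 11 tested members of 16. Of these 1 passed in A-line HOM (9.09% against 4.68% of all genes), 2 in A-line HET (18.2% against 7.96%), 3 in G-line HOM (27.3% against 26.4%) and 0 in G-line HET by edgeR's test (1 at an unadjusted p under 0.05, 1 with DESeq2), all of them higher. The medians were 0.40, 0.57, 0.39 and 0.05. Among all 17588 genes, 3929 were at an unadjusted p under 0.05 in G-line HET by edgeR's test. Nkd2, a Wnt antagonist, had 5.43 CPM in A-line HOM, 5.48 to 6.65 in A-line HET, 9.67 to 22.4 in G-line HOM, 4.23 to 6.58 in G-line HET and 2.58 to 4.16 in WT. It rose in G-line HOM by 2.48 ± 0.31 (SE, adjusted p = 0.000118 in edgeR's test).

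Of 8 BMP-SMAD target genes, 5 passed in G-line HOM (62.5% against 26.4%), all higher. In A-line HOM 0 passed edgeR's test (2 at an unadjusted p under 0.05, 0 with DESeq2), in A-line HET 0 (3 and 1) and in G-line HET 0 (1 and 1). The medians were 0.66, 0.47, 1.15 and 0.27. Of all 17588 genes, 3309 were at an unadjusted p under 0.05 in A-line HOM, 3861 in A-line HET and 3929 in G-line HET. Smad7, an inhibitory SMAD gene, was at 16.9 ± 4.14 CPM in G-line HOM against 6.34 ± 1.40 CPM in WT (SD, n = 3 each), a log2 fold change of 1.42 ± 0.24. Bambi, a decoy receptor gene of the pathway, was at 34.4 ± 3.46 against 14.8 ± 1.16 CPM, or 1.22 ± 0.23. Of the Wnt calls 1 in G-line HOM, that of Nkd2, held without any single library, as did 2 of the BMP-SMAD calls, those of Smad7 and Bambi. Calls of these lists often depended on which libraries were used. In G-line HOM against WT, 28 of the 71 list genes were called with the shared pair as WT (39.4% against 26.4% of all genes). Fewer were called with the pair left out or counted as A-line HOM, each of which leaves 1 WT library. Calls over all genes in that comparison fell as well, so the loss was not particular to the lists. Of the calls against WT described here, those of Tbx5, Ckm, Atp2a2, Nkd2 and Smad7 in G-line HOM and of Gja1 in G-line HET held under every alternative tried. Those of Ccn1 and Myh7 in A-line HET and of Tbx5 in G-line HET were lost with the pair left out, that of Ccn1 also without the 3 libraries with Myl7 at 10 CPM or more, and the rest, Myocd apart, were lost only with the pair as A-line HOM.

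**Figure D5:**
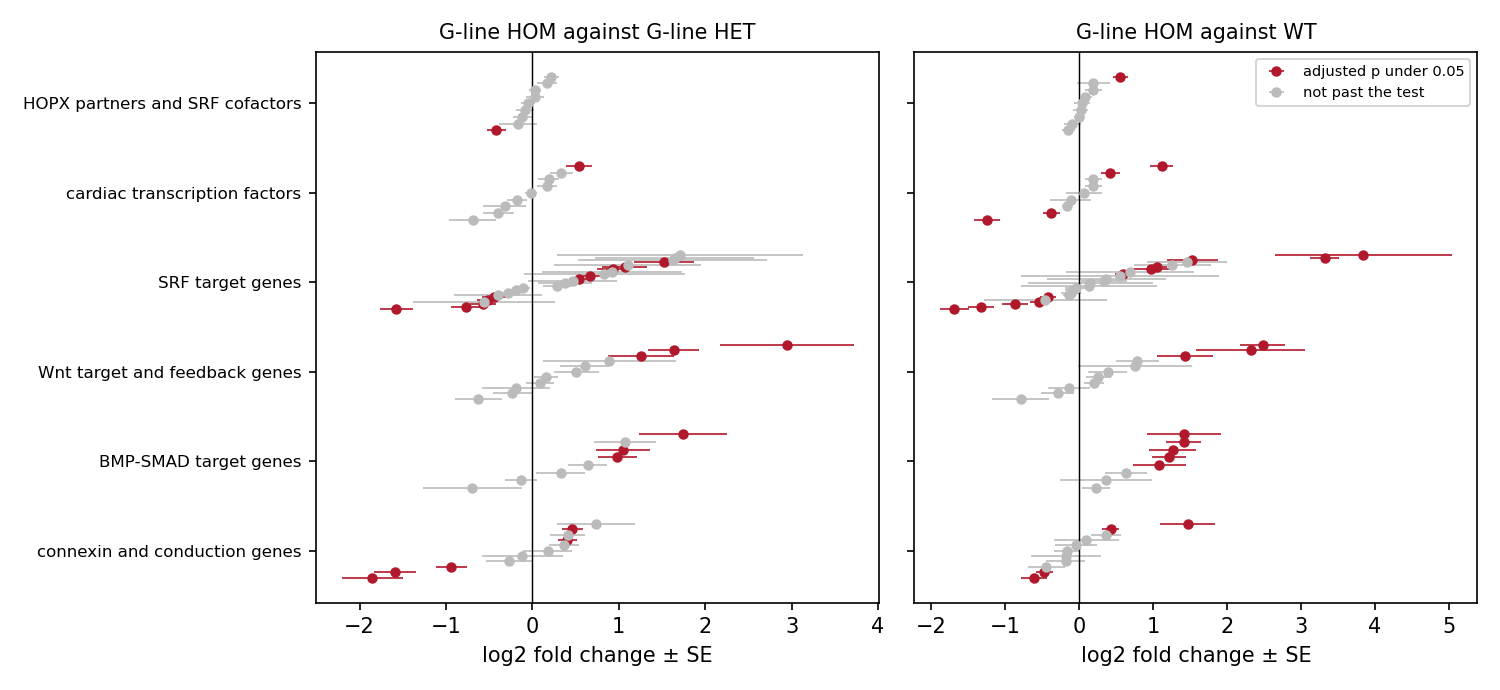
Log2 fold change (points, with bars of 1 SE) of the tested members of each gene list, in G-line HOM against G-line HET (left) and in G-line HOM against WT (right); red points passed the test at an adjusted p under 0.05. In both panels the SRF target genes hold points on both sides of 0, and the called Wnt and BMP-SMAD target genes lie above 0.

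Where Hopx itself differed by test, in G-line HOM against G-line HET, 23 of the 71 list genes passed (32.4% against 14.6% of all genes). As the lists were chosen with earlier results of these data known, a share above that of all genes is only a description. Ankrd1 (0.93 ± 0.18) and Ccn1 (0.67 ± 0.13) were higher and Ckm (-1.57 ± 0.19) and Atp2a2 (-0.77 ± 0.17) lower among the SRF targets, of which 5 rose and 5 fell. Conduction genes split into 2 higher and 3 lower, and Hcn4 (-1.59 ± 0.24), which encodes an ion channel of the conduction system, was among the lower ones. Hcn4 averaged 22.1 CPM in G-line HET, 7.40 CPM in G-line HOM and 9.98 CPM in WT. Its G-line HET level was thus raised above WT, and G-line HOM against WT did not pass. Nkd2 was higher by 1.63 ± 0.29. The calls of Ckm, Hcn4 and Nkd2 held under every alternative tried, and those of Ankrd1, Ccn1 and Atp2a2 were lost only with the shared pair as A-line HOM. Values with ± in this paragraph are log2 differences with their SE.

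Marker lists of other cell types gave the surroundings of these changes. Lung epithelium, where Hopx is also known, was near 0 in every library, with 6 markers summing to 1.14 CPM in A-line HOM, 0.319 to 1.11 in A-line HET, 1.13 to 1.63 in G-line HOM, 0.513 to 1.40 in G-line HET and at most 1.93 in WT. Fat cell markers summed to 264 CPM in A-line HOM, 243 to 313 in A-line HET, 276 to 356 in G-line HOM, 296 to 313 in G-line HET and 430 to 455 in WT. Fabp4 was lower in all 4 groups. Nearly all of that sum was Fabp4, with 263.7 of 264.3 CPM in A-line HOM, so it describes 1 gene; Adipoq, Cidec, Plin1 and Retn averaged 3.71 CPM or less in each group and did not pass. Endothelial markers summed to 597 CPM, 543 to 714, 609 to 703 and 529 to 660 in the mutant groups in the same order, against 714 to 826 CPM in WT. Fibroblast markers summed to 1099 CPM, 872 to 1599, 1300 to 1656 and 870 to 1438, against 627 to 1040 CPM in WT. In G-line HOM 3 of 6 fibroblast markers, Col1a1, Dcn and Tcf21, passed as higher, where 13.1% of all genes did. Lum and Pdgfra lay above 0 and Dpt below 0 (log2 fold change -0.24) there, and they did not pass. Of 6 endothelial markers, Emcn passed as lower in A-line HET, Tie1 in G-line HOM, and Emcn and Kdr in G-line HET. In these groups 3.97%, 13.3% and 3.54% of all genes were called lower. Smooth muscle markers summed to 1543 CPM, 1301 to 1650, 1329 to 2118 and 1344 to 1540, against 1158 to 1302 CPM in WT. Most of that sum was Des, which heart muscle also expresses, at a mean of 1423 CPM in A-line HOM, 1236 in A-line HET, 1527 CPM for G-line HOM, 1315 in G-line HET and 1022 in WT. The median log2 fold change of the 5 tested smooth muscle markers was -1.07, 0.27, 0.14 and -0.69 in the order of the mutant groups, and in G-line HOM Des rose while Smtn fell. Macrophage markers summed to 163 CPM, 169 to 186, 156 to 230 and 172 to 201, against 156 to 231 CPM in WT. Their part in the results was not tested.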

How the data were processed

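TRIzol-extracted total RNA of left ventricles was DNase-treated before Illumina TruSeq total RNA libraries were made, per the labels' protocols. Tools used were bcl2fastq 2.20.0.422, Trimmomatic 0.39 and STAR 2.7.4a with the GRCm39 build, per the submitters' processing notes. The authors deposited whole-number counts per gene symbol. For the counting program, annotation and strand setting, the record is: not given in the sources used here. The 2 genes and all gene lists were chosen with earlier results of these data known.

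Groups came from the sample titles. Genes were kept with at least 0.422 CPM (10 counts in the median library of 23714906) in 3 or more libraries and 15 counts in total, which left 17588. CPM values were computed from the deposited counts with edgeR 4.0.16's TMM factors (R 4.3.3). One model over the 13 distinct libraries, with a mean per group, was fitted by edgeR (robust quasi-likelihood), leaving 8 residual degrees of freedom at a common biological variation of 17.1%. F tests were two-sided and called at 0.05 after Benjamini-Hochberg adjustment over the 17588 genes. Adjusted p-values come from this test unless another is named. The procedure was run on simulated data with the same spread for every gene, which does not test how it performs on these libraries. Fitted folds of Hopxos are not given, since groups were at or near 0. Promoters came from RefSeq GRCm38.p6, whose symbols match 38684 of the 40174 in the tables (96.3%).

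Named genes were Hopx and Hopxos, the 10 genes with the highest Pearson r with Hopx over all libraries and 5 over the mutants, those as low as Hopx by the limits given, list members past the test, HOPX partners and tested genes within 1 Mb, leaving out predicted or clone-named genes unless said. Some conduction genes are not reported here by name. Alternatives were DESeq2 1.42.0, its size factors in edgeR, no filter beyond 1 count, 1 CPM in 3 libraries, a fit of only the 2 compared groups, a replicate block, both other treatments of the shared pair and omission of each library in turn. Added once the data had been seen was the omission of the 3 libraries with Myl7 at 10 CPM or more.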

Additional observations from a re-analysis of the deposited data

How the results depend on the processing

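The low Hopx level in A-line HET, G-line HOM and G-line HET against WT kept its direction under all alternatives. Leaving out each library in turn gave log2 fold changes of -6.03 to -5.90 in A-line HOM, -6.43 to -6.07 in G-line HOM, -4.90 to -4.28 in A-line HET and -4.75 to -4.45 in G-line HET. The same runs gave -1.84 to -1.42 for G-line HOM against G-line HET, -1.67 to -1.04 for A-line HOM against A-line HET, -0.27 to 0.36 for A-line HET against G-line HET and -0.05 to 0.61 for the difference between the lines. They gave 0.494 to 2.06% for Hopxos in mutants as a share of WT, and 0.665 to 0.836% in WT and 0.140 to 0.541% in mutants for its share of the pair's counts.

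With the shared pair as A-line HOM, Hopx was at -0.68 in A-line HOM against WT, -1.65 in G-line HOM against G-line HET (adjusted p = 0.434, call lost) and 3.85 in A-line HOM against A-line HET (reversed, adjusted p = 0.679). Hopxos was then at 12.9% of WT, and its share in WT was 0.967%, also with the pair left out. The other reversals were of a difference near 0, that between the lines: -0.0035 with the replicate block and -0.24 without the 3 libraries with Myl7 at 10 CPM or more, called atrial libraries here. Leaving out 1 library reversed it in 3 runs (-0.012, -0.0101, -0.046) and A-line HET against G-line HET in 2 (-0.266, -0.016). The cause was not tested.

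Numbers of genes called moved most. In A-line HOM against WT they were 1254 with DESeq2, 1451 with only those groups, 504 with the block, 0 with the pair as A-line HOM and 102 with it left out. In A-line HET against WT they were 0 with the pair as A-line HOM, 165 with it left out and 651 without the atrial libraries. In G-line HOM against WT they were 1151 and 2226 with those treatments of the pair. In G-line HET against WT they were 2164 with only those groups, and 5 and 236. G-line HOM against G-line HET had 1251 with the pair as A-line HOM and 1558 without the atrial libraries. A-line HOM against A-line HET had 25 with DESeq2, 13 with no filter, and 0 with the block and with either treatment of the pair. A-line HET against G-line HET had 252 with DESeq2, 69 with no filter, 2 with the 1 CPM filter, 1 with the block, 1 and 3 with the pair moved or left out, and 3 without the atrial libraries. Leaving out each library gave 398 to 1180, 622 to 2038, 3284 to 4890, 515 to 1622, 1168 to 3016, 0 to 9 and 0 to 607 in the order of these comparisons.

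List genes called against WT in A-line HOM, A-line HET, G-line HOM and G-line HET were 0, 0, 6 and 1 with the pair as A-line HOM (11 in G-line HOM against G-line HET), and 3, 1, 13 and 4 with it left out. A-line HOM had 12 with only those groups and 13 without the atrial libraries, where G-line HET had 14. Leaving out each library gave 4 to 10, 6 to 16, 17 to 31, 6 to 13 and, in G-line HOM against G-line HET, 11 to 24. Genes near Hopx called in A-line HOM were 1 with only those groups. In A-line HET they were 2 with only those groups and 1 without the atrial libraries. In G-line HOM they were 1 with either treatment of the pair and 2 without the atrial libraries. In G-line HET they were 1 with no filter, and 0 with the block and with either treatment of the pair. In G-line HOM against G-line HET they were 1 without the atrial libraries. Leaving out each library gave 0 to 0, 0 to 2, 4 to 8, 0 to 3 and 1 to 7.

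The replicate numbers did not pair the libraries: 4 of 18 same-numbered pairs correlated over 0.1 (range -0.296 to 0.189). With the block, Hopx differed by -1.64 between G-line HOM and G-line HET (adjusted p = 0.0195 in edgeR's test). Depth limits Hopxos, with 4 counts in 10 mutant libraries.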
